A study of Mus musculus with 12 samples.

Results

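The genes described here encode the proteins of the mitochondrial ribosome, chosen by name: every gene of the files called Mrpl or Mrps followed by a number. There were 69 such genes among 12918 gene symbols, and the rule reads names only, not measured values, though it was set with earlier results of these data known. RNA was measured in mouse splenic CD4 T cells in 4 groups of 3 libraries. The groups were KI naive, KI activated, KIKO naive and KIKO activated cells. KI and KIKO are the only names the labels have for the genotypes. The altered gene, the strain, the age, the promoter of any transgene or Cre, and whether libraries came from separate animals are not given in the sources used here. Activated cells, of either genotype, had spent 16 h with beads that carry antibodies to CD3 and CD28, which engage the antigen receptor complex and its co-receptor for activation. Naive cells are labelled naive. The titles of the KIKO activated samples omit CD4, which those of the other groups give. Because nothing states that the libraries of a group came from different mice, p-values measure only the spread between these libraries, which may be technical.

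The mitochondrial ribosome translates the small set of messages that mitochondrial DNA encodes, all of them for subunits of the respiratory chain and the ATP synthase. Its ribosomal RNAs are also encoded there, but each of its proteins is encoded in the nucleus, made in the cytosol and imported. Some of these proteins descend from bacterial ribosomal proteins and others were gained by mitochondria. A resting T cell that meets antigen grows and enlarges its mitochondria before it divides, and synthesis of respiratory chain subunits in mitochondria is part of that growth.

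Levels are in FPKM, fragments per kilobase per 1000000 fragments mapped, a unit scaled by transcript length, so levels of different genes can be set side by side. Differences are given on the log2(FPKM + 1) scale, which understates changes of low genes. A gene is said to have risen or fallen where limma's moderated test gave a Benjamini-Hochberg adjusted p under 0.05 over all 9743 loci with at least 1 FPKM in at least 3 of the 12 libraries. Of the 69 genes, 68 passed that filter. The remaining one, Mrpl50, was listed in 1 library only, KI activated 2, at 0.897 FPKM, and was not tested. FPKM carry no read numbers, so depth is unknown, and in bulk RNA fewer cells of a type and less RNA per cell cannot be told apart.

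Of the T cell markers, Cd3e lay between 109 and 210 FPKM and Cd4 between 86.4 and 221 FPKM in all libraries. Trac stood at 99.5 FPKM in KI naive 1 and 78.6 FPKM in KIKO naive 3 but at or under 6.00 FPKM elsewhere, and Cd2 at or under 8.69 FPKM everywhere. Of the CD8 markers, Cd8a stayed under 0.6 FPKM, while Cd8b1 was found in every library, at 6.51 to 8.12 FPKM in KI naive, 12.5 to 16.1 FPKM in KIKO naive, 10.9 to 12.8 FPKM in KI activated and 8.39 to 10.04 FPKM in KIKO activated cells. The summed FPKM of 8 T cell markers was lower in KIKO cells in both states without overlap: 1465 to 1645 in KI naive against 1152 to 1299 in KIKO naive libraries, and 1224 to 1426 in KI activated against 561 to 894 in KIKO activated libraries. Of 7 B cell markers 3 were in the files: Cd79a and Cd79b were at or under 2.66 FPKM everywhere, and Ighm was 101 to 113 FPKM in KI activated and 32.1 to 53.9 FPKM in KIKO activated libraries. In naive libraries Ighm was 93.5 to 139 FPKM. KIKO naive 2 and KIKO activated 2 held some myeloid transcripts and Gzma, from the natural killer list, that were under 4 FPKM elsewhere. S100a9 stood at 110 and 92.8 FPKM, S100a8 at 65.98 and 45.4 FPKM, and Gzma at 8.01 and 7.57 FPKM. Lyz2, Fcer1g and Tyrobp were also highest in these libraries. Cd68 and Csf1r were at or under 1.83 FPKM everywhere, and Ctss was not raised in them. The natural killer markers Ncr1, Klrk1 and Nkg7 were at or under 1.30 FPKM everywhere. The counts of Mrpl and Mrps genes called in each of the 5 comparisons were therefore repeated without both libraries. Counts of genes, events or starts without overlap rest on all 12 libraries, as do motif counts. For the other gene lists no such repeat is given.

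Promoters of 3 genes with responses described below are shown first, each as the 250 bases before the annotated start (RefSeq, GRCm38.p6; the build of the files is GRCm39). Mrpl52 and Mrpl12 had the largest deficits in activated KIKO cells, and Mrps22 rose strongly in both genotypes. Capitals mark CCGGAAG, or CTTCCGG on the other strand, the core letters bound by ETS factors, a family of activators common at promoters of mitochondrial genes.

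Mrpl52, chr14:54426659-54426908, plus strand: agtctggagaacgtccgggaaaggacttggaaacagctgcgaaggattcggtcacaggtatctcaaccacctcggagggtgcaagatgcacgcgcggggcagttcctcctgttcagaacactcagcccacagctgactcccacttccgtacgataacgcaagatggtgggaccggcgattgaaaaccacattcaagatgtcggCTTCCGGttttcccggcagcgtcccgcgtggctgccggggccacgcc
Mrpl12, chr11:120484387-120484636, plus strand: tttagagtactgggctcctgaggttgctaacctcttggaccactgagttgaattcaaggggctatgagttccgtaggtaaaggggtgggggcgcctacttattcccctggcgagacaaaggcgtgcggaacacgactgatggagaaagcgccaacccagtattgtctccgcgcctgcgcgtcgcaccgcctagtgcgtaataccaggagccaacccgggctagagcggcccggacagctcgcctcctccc
Mrps22, chr9:98601680-98601929, minus strand: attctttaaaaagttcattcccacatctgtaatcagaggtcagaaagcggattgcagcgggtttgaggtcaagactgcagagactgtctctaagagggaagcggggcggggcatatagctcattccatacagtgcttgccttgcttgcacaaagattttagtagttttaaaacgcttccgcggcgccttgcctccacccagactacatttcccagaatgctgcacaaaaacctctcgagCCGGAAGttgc

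A promoter was given for 61 of the 69 genes. CCGGAAG stood on either strand in 16 of them, 26.2%, against 15.9% of 7348 tested genes and 7.05% of all 27025 promoters of the table. Among genes that fell in activated KIKO relative to KI cells, 8 of 26 held it, and among the others 8 of 35, so the motif was found in genes of either kind. Mrpl52 has it 47 bases before the start and Mrps22 11 bases before it, while Mrpl12 has none in this window. CACGTG, the E-box letters read by Myc and related factors, was in 5 of 61 members (8.20%), against 9.04% of tested genes. GCATGCG, a part of the NRF1 palindrome, was in 7 members (11.5%, against 6.08%), AAGATGG, read by YY1, in 6 (9.84%, against 4.86%), and CCAAT in 21 (34.4%, against 37.6%). All motifs were searched on both strands, matches of different motifs may share letters, and a match describes the sequence alone.

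Before stimulation the level differed widely between members. Group means in KI naive cells ran from 1.40 FPKM for Mrpl17 to 76.0 FPKM for Mrpl52, with a median of 12.8 over the 68 genes. The FPKM of all members added up to 1074, 1077 and 1204 in KI naive and to 1158, 1298 and 1211 in KIKO naive libraries, ranges that overlap. After 16 h of stimulation the sums were 2203, 2398 and 2533 in KI and 1787, 1804 and 1537 in KIKO libraries. Activated libraries of either genotype therefore lay above all naive ones, and each KIKO activated library lay below each KI activated one. As a share of the summed levels of all loci, the family took 0.334% ± 0.00301 in KI naive, 0.391% ± 0.0143 in KIKO naive, 0.642% ± 0.0321 in KI activated and 0.506% ± 0.0316 in KIKO activated cells (SD, n = 3 each). The median coefficient of variation of a gene within a group was 10.9%.

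**Figure D1:**
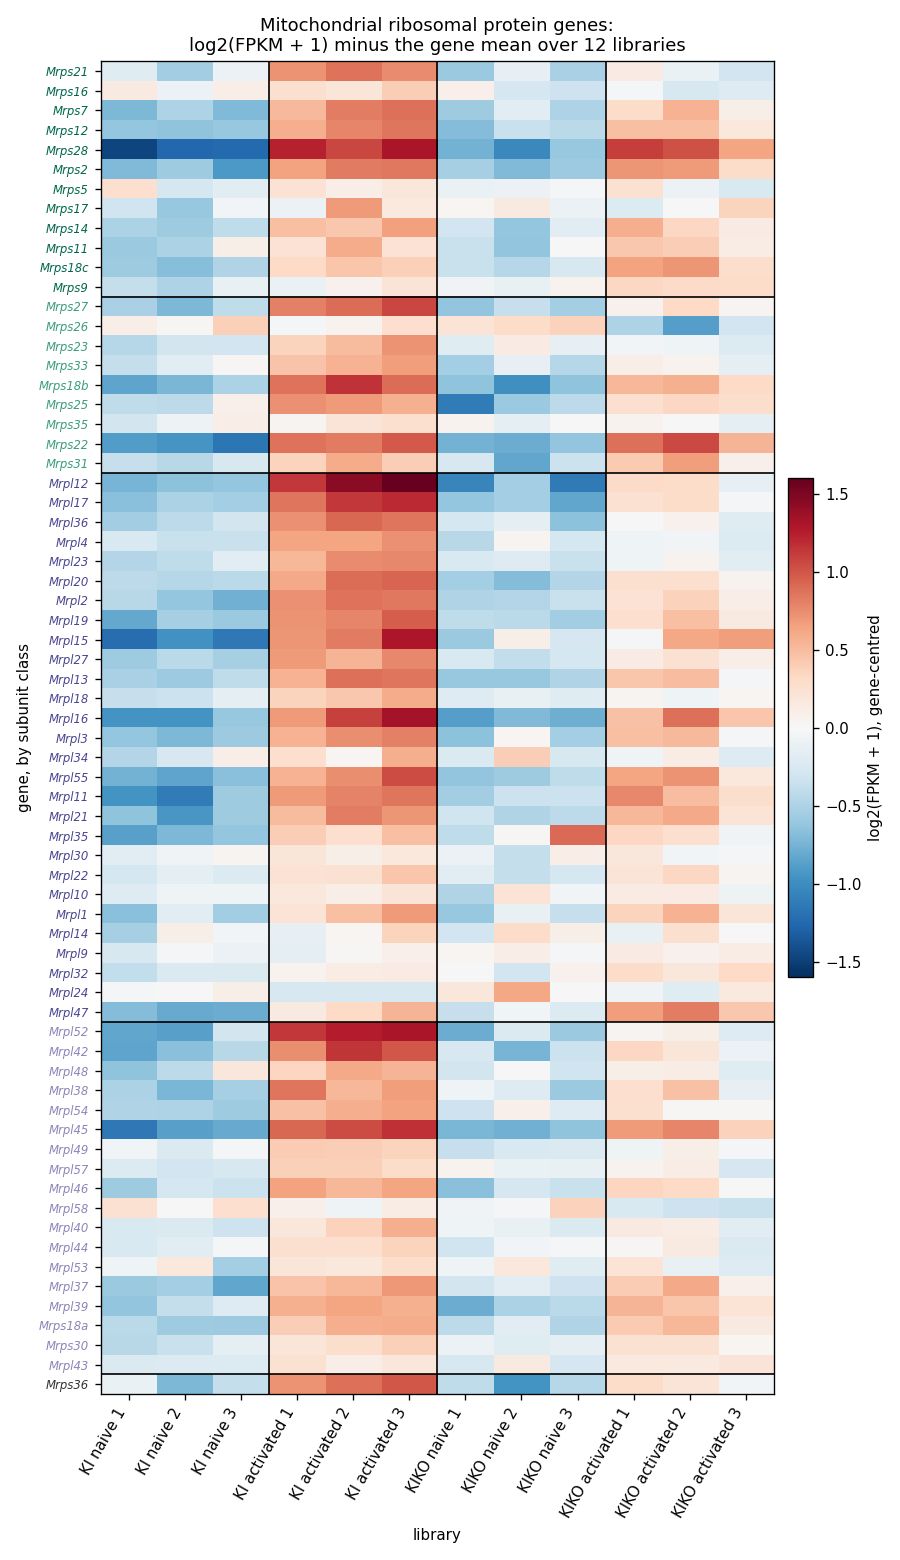
Rows are the 68 tested genes, ordered by subunit class and within a class by the activated KIKO minus KI difference; columns are the 12 libraries, and colour is log2(FPKM + 1) minus the mean of the gene. KI activated libraries are the reddest block for most genes, the mean of the KIKO activated libraries lies between the means of KI naive and KI activated for 58 of 68 genes, and KIKO activated 3 is the palest of its group.

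In KI cells stimulation raised most of the family. Of 68 genes, 57 rose and none fell, with a median difference of 1.01. Over all loci 61.7% changed in this comparison, 32.2% upwards and 29.5% downwards, and the median difference was -0.01. Of the 68, 39 rose at least 2-fold in mean FPKM, and the median ratio was 2.09. Libraries did not overlap for 59 genes higher after stimulation, against 35.6% of all loci, and for 1 lower, against 33.5%. Without the libraries that held myeloid transcripts 57 rose and 1 fell.

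Mrps28, the small-subunit relative of the first bacterial small-subunit protein, showed the largest rise. Its levels were 5.85, 6.98 and 7.05 FPKM in KI naive and 43.6, 38.9 and 45.8 FPKM in KI activated libraries, 6.46-fold on the means, with a log2 difference of 2.52 ± 0.15 (SE, limma adjusted p = 9.16e-08). No naive library came near an activated one.

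Mrpl12 forms the flexible stalk of the large subunit that recruits translation factors, and has been reported to bind mitochondrial RNA polymerase. It went from 27.9, 29.9 and 30.6 FPKM to 105, 131 and 158 FPKM in KI cells, a log2 difference of 2.10 ± 0.18 (limma adjusted p = 1.29e-06). The activated libraries spread more widely than the naive ones but stayed far apart from them. The remaining genes named by size were Mrpl15 (log2 difference 2.05), Mrpl45, which sits at the peptide exit and holds the ribosome to the inner membrane (1.98), Mrpl52 (1.89), Mrps22 (1.89), Mrpl16 (1.87) and Mrps18b (1.67).

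The rise in KI cells was found in all classes of subunit protein. In the small subunit 10 of 12 genes with a bacterial homolog and 7 of 9 specific to mitochondria rose, with medians of 0.99 and 0.87. In the large subunit the counts were 23 of 28 and 16 of 18, with medians of 1.15 and 0.89. Among all loci 32.2% rose and 29.5% fell in this comparison. Mrps36, now assigned to the 2-oxoglutarate dehydrogenase complex and not to the ribosome, rose as well, by 1.27. Genes that passed in neither genotype were 9: Mrpl9, Mrpl10, Mrpl14, Mrpl24, Mrpl30, Mrpl53, Mrps5, Mrps16 and Mrps35. Their KI naive means ran from 7.37 FPKM for Mrps35 to 56.4 FPKM for Mrpl24. Mrpl24 measured 54.3, 55.8 and 59.2 FPKM in KI naive and 46.3, 46.2 and 46.3 FPKM in KI activated libraries. Its log2 difference was -0.28 (limma adjusted p = 0.098).

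KIKO cells also raised the family, by smaller amounts. Of 68 genes, 43 rose and 2 fell, with a median difference of 0.51, where 47.3% of all loci changed, 25.1% upwards and 22.2% downwards around a median of 0.00. The median ratio of means was 1.43 and 12 genes rose at least 2-fold. All 43 had risen in KI cells too, and no gene rose in KIKO cells alone. Libraries did not overlap for 41 genes higher (29.3% of all loci) and 2 lower (26.6%). Without the 2 libraries with myeloid transcripts 37 rose and 2 fell.

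The largest rises in KIKO cells were in Mrps28, as in KI cells, and in Mrps22. Mrps28 went from 10.3, 8.29 and 11.5 FPKM to 40.0, 37.4 and 28.3 FPKM, a log2 difference of 1.71 ± 0.15 (limma adjusted p = 4.56e-06). Mrps22, a small-subunit protein gained by mitochondria, went from 14.7, 14.2 and 16.1 FPKM to 47.4, 53.7 and 37.6 FPKM, a log2 difference of 1.55 ± 0.13 (limma adjusted p = 3.05e-06). For both genes every activated library was above every naive one. Mrpl16 (1.38), Mrpl45 (1.33), Mrps18b (1.23), Mrps2 (1.17), Mrpl12 (1.07) and Mrpl55 (1.05) followed.

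The genes that fell were Mrps26 and Mrpl58. Mrpl58 is a peptidyl-tRNA hydrolase that frees stalled mitochondrial ribosomes and is also built into the large subunit. It measured 18.0, 18.4 and 24.4 FPKM in KIKO naive and 15.7, 14.6 and 14.4 FPKM in KIKO activated libraries, a log2 difference of -0.41 ± 0.12 (limma adjusted p = 0.0175). In KI cells its difference was -0.13 (limma adjusted p = 0.394). Mrps26 is described below with its intron.

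**Figure D2:**
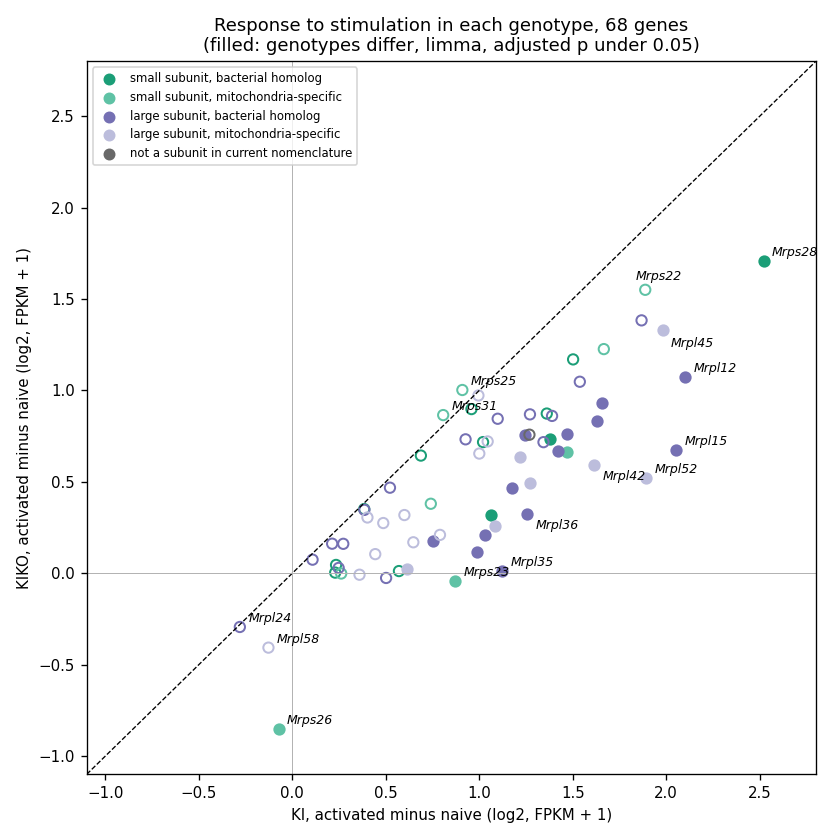
Each point is 1 of 68 genes; the x axis is the log2 difference of activated from naive KI cells, the y axis the same in KIKO cells, colours give the subunit class and filled points the 26 genes whose responses differed. Nearly all points lie under the dashed line of equal response, with Mrpl15 and Mrpl52 far below it and Mrps22 close to it.

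Whether the genotypes responded differently was tested by the interaction of genotype and activation. In 26 of 68 genes the response of KIKO cells was lower and in none was it higher, with a median interaction of -0.49. Over all loci 20.6% passed, 8.99% higher and 11.6% lower, around a median of -0.01. The estimate was below 0 in 66 of the 68 genes; the exceptions were Mrps25 (0.09) and Mrps31 (0.06), neither called. The count fell to 15 without KI activated 3 and to 17 without KI activated 2, KI naive 2 or KIKO activated 3, and was 25 without both libraries with myeloid transcripts. Over the 68 genes the rises in KI and in KIKO cells had a Pearson correlation of 0.821 and a Spearman correlation of 0.782, a description across genes, which are not independent and were scaled within the same libraries.

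Mrpl15, a core protein of the large subunit, had the most negative interaction, -1.38 ± 0.31 (SE, limma adjusted p = 0.00877). Its levels were 6.85, 8.27 and 7.23 FPKM in KI naive, 11.1, 18.4 and 14.1 in KIKO naive, 28.6, 31.4 and 43.7 in KI activated and 16.9, 27.0 and 27.9 in KIKO activated libraries. It thus started higher and ended lower in KIKO cells, with no overlap in either state; of these differences the naive one passed the test (limma adjusted p = 0.0277) and the activated one did not (limma adjusted p = 0.0748). Mrpl52 followed at -1.37 ± 0.24 (limma adjusted p = 0.00249), from naive levels that overlapped.

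Mrpl35 had an interaction of -1.11, Mrpl12 of -1.03, Mrpl42 of -1.02, Mrpl36 of -0.93, Mrps23 of -0.92 and Mrpl4 of -0.87. Mrps23 rose in KI cells, from 15.1, 17.0 and 16.9 to 27.2, 30.3 and 35.1 FPKM. In KIKO cells it measured 18.3, 23.1 and 19.0 FPKM before and 20.4, 20.0 and 17.9 FPKM after stimulation, ranges that overlap, with a log2 difference of -0.04 (limma adjusted p = 0.782).

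Compared directly, activated KIKO cells held less of the family than activated KI cells. Of 68 genes, 31 were lower and none was higher, with a median difference of -0.36 and a median ratio of means of 0.774. Over all loci 40.0% differed, 20.7% higher and 19.3% lower, with a median of 0.04. The difference was below 0 in 61 genes. Libraries did not overlap for 36 genes lower (26.0% of all loci) and 3 higher (27.9%). Of all calls in this comparison 51.8% were higher, and 64.9% once levels were rescaled so that every library had the same sum. That rescaling put the median of all loci at 0.15 and left 21 members lower and 4 higher. Of the 31, 21 also passed the interaction test. The T cell marker sum and Ighm also differed between these groups, as given above, and their part in the result was not tested. Without the libraries with myeloid transcripts 34 were lower and 1 higher.

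Mrpl12 differed most: 105, 131 and 158 FPKM in KI against 59.1, 58.6 and 43.3 FPKM in KIKO activated libraries, 40.9% of the KI mean, with a log2 difference of -1.27 ± 0.18 (SE, limma adjusted p = 0.000195). Mrpl52, a mitochondria-specific protein of the large subunit and the most abundant member, measured 262, 286 and 296 against 123, 127 and 103 FPKM, 41.9% of the KI mean, with a log2 difference of -1.25 ± 0.17 (limma adjusted p = 0.000128). For both genes the highest KIKO library lay far below the lowest KI library, and the naive libraries of the genotypes overlapped.

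Mrpl17, a large-subunit protein near the peptide exit, was low in all groups. It measured 5.43, 6.83 and 7.12 FPKM in KI and 3.23, 3.37 and 2.49 FPKM in KIKO activated libraries (log2 difference -0.89 ± 0.16, limma adjusted p = 0.000798). Mrps21, of the small subunit, measured 70.3, 78.7 and 72.8 against 46.6, 39.5 and 34.2 FPKM (log2 difference -0.88 ± 0.16, limma adjusted p = 0.000828). Neither gene's groups overlapped, and in KIKO cells the activated range of Mrps21 overlapped the naive one, 27.9 to 38.8 FPKM.

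Mrpl36, Mrpl42, Mrps27 and Mrpl4 completed the genes named by size. Mrpl42 stood at 67.5, 89.0 and 80.1 FPKM in KI and at 50.3, 45.5 and 37.2 FPKM in KIKO activated libraries, 56.2% of the KI mean. Mrpl4, whose bacterial relative lines the peptide tunnel, stood at 32.3, 32.2 and 34.5 against 19.5, 19.7 and 17.4 FPKM, 57.2% of the KI mean. Mrps27, a small-subunit protein with repeats typical of RNA-binding organelle proteins, stood at 56.5% and Mrpl36 at 53.2% of their KI means. The log2 differences of these 4 genes lay between -0.87 for Mrpl36 and -0.78 for Mrpl4 and Mrps27.

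**Figure D3:**
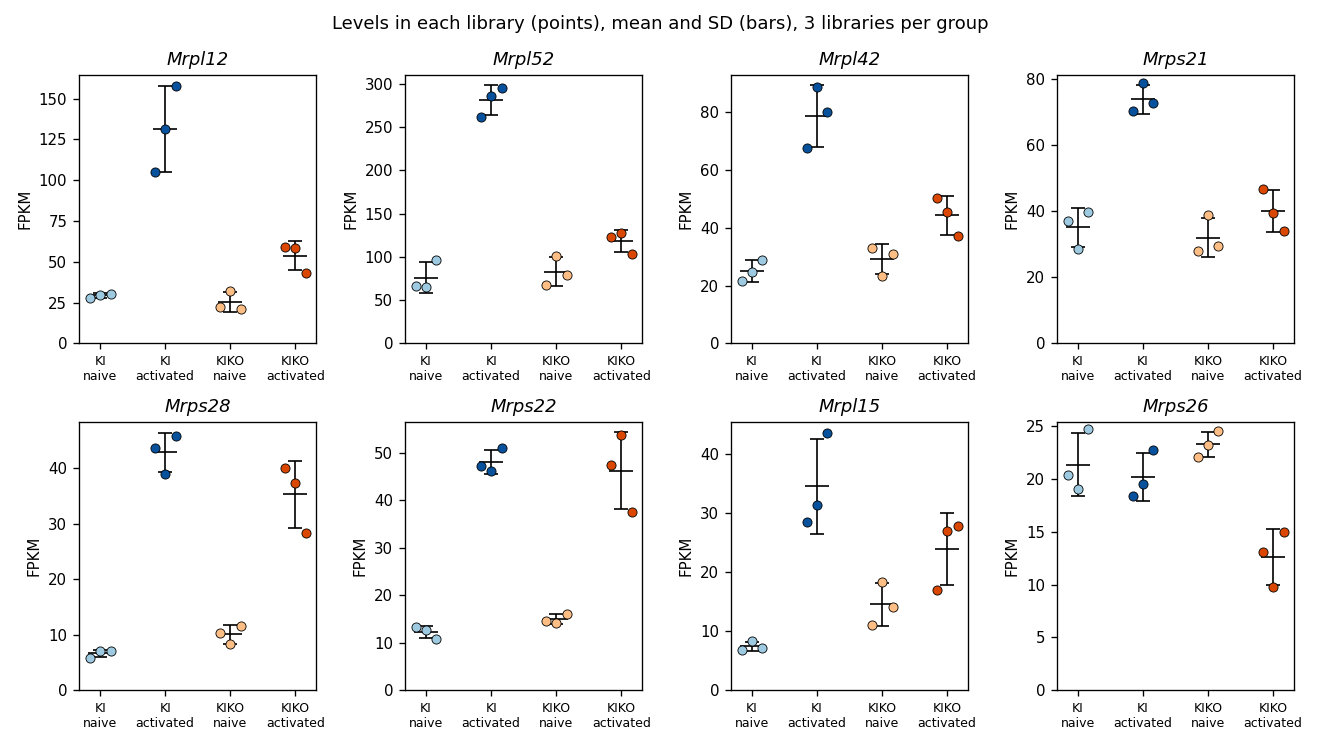
Each panel shows 1 gene; the y axis is FPKM from 0, points are the 3 libraries of each group, and bars are mean and SD. Mrpl12, Mrpl52, Mrpl42 and Mrps21 in KIKO activated cells lie well below KI activated cells, the activated libraries of the genotypes overlap for Mrps28 and Mrps22 while their naive ones do not, and Mrps26 is lowest in KIKO activated cells.

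By class, 4 of 12 small-subunit genes with a bacterial homolog were lower in activated KIKO cells, with a median of -0.21, and 5 of 9 mitochondria-specific ones, with a median of -0.50. In the large subunit 11 of 28 and 10 of 18 were lower, with medians of -0.36 and -0.37. The shares called in these 4 classes were 33.3%, 55.6%, 39.3% and 55.6%. Among all loci 40.0% differed in this comparison, 19.3% lower and 20.7% higher. Mrps36 was lower as well, at 59.8% of the KI mean (log2 difference -0.71, limma adjusted p = 0.00699). Whether classes differ from each other was not tested. Genes with an estimate of 0 or above were Mrpl9, Mrpl24, Mrpl32, Mrpl43, Mrpl47, Mrps9 and Mrps18c, none of them called.

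**Figure D4:**
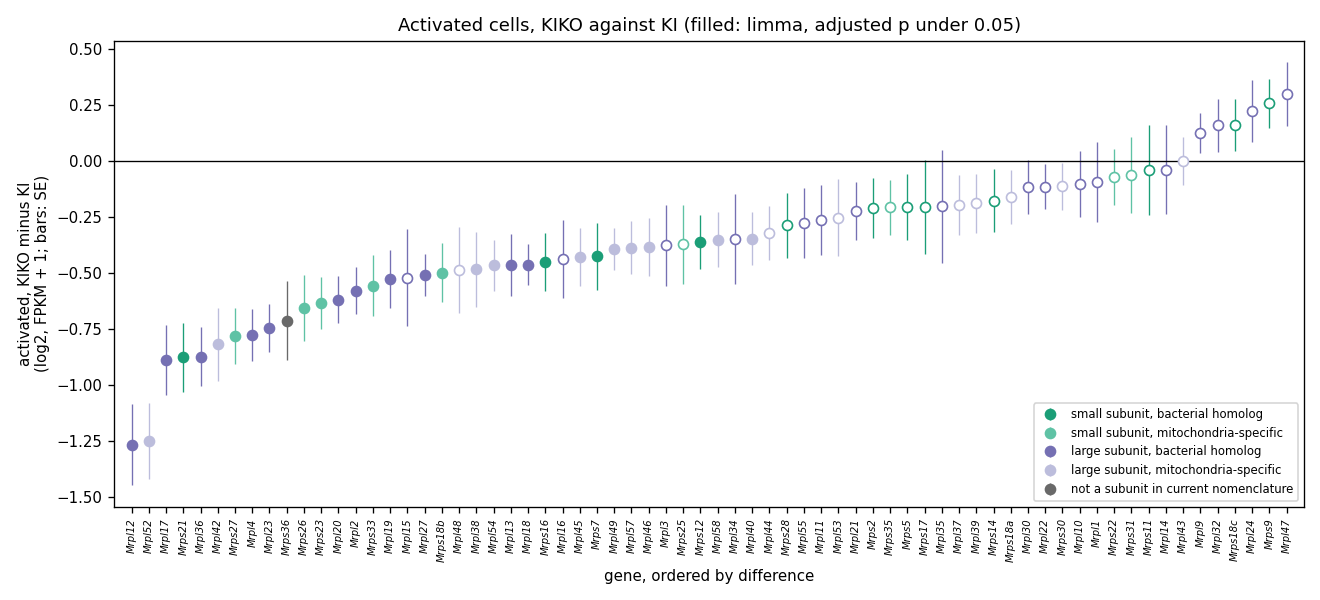
Genes are ordered along the x axis by the log2 difference of KIKO from KI activated cells (y axis), with bars of 1 SE, colours for the subunit class and filled points for the 31 genes called lower. Mrpl12 and Mrpl52 stand apart at the low end near -1.27 and -1.25, and no gene above 0 is filled.

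The 3 paralogs of Mrps18 occupy different places in the ribosome: Mrps18b and Mrps18c are built into the small subunit and Mrps18a into the large one. All 3 rose with stimulation in either genotype. Mrps18b rose by 1.67 in KI and 1.23 in KIKO cells, Mrps18a by 1.04 and 0.72, and Mrps18c by 0.96 and 0.90. In activated cells Mrps18b was lower in KIKO, at 33.8, 34.5 and 28.9 FPKM against 42.6, 52.6 and 43.6 FPKM (log2 difference -0.50, limma adjusted p = 0.0102). Mrps18a measured 31.2, 33.9 and 25.6 against 30.6, 35.1 and 35.4 FPKM, and Mrps18c 32.2, 33.6 and 24.9 against 25.5, 27.97 and 26.8 FPKM. The genotypes overlapped for both, with log2 differences of -0.16 and 0.16 (limma adjusted p = 0.319 and 0.29).

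Mrpl18, which lies in the central protuberance of the large subunit and is known to yield a cytosolic form after heat shock, rose in KI cells from 38.9, 39.7 and 45.6 to 65.2, 68.6 and 77.3 FPKM. In KIKO cells it went from 43.8, 46.5 and 44.3 to 52.4, 48.1 and 51.6 FPKM, without overlap but not past the test (log2 difference 0.17, limma adjusted p = 0.138). Its interaction of -0.58 passed (limma adjusted p = 0.00896). Mrps12, the decoding-centre protein, rose by 1.36 in KI and 0.87 in KIKO cells, and its interaction of -0.49 did not pass (limma adjusted p = 0.0607). The locus of Mrps12 consists only of transcript starts, the main one of 56 bp, the length of its annotated first exon. Of the 3 lengths of that locus, 2 also occur in Plekhg2, a gene within 1000000 bp on the same strand. Such short lengths can match by coincidence, so by length alone its value may not be all that of Mrps12.

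In naive cells few members differed between the genotypes. Mrpl15, Mrpl35, Mrpl47 and Mrps28 were higher in KIKO cells, 4 of 68, and none was lower, with a median difference of 0.12; 10.4% of all loci differed, 6.46% higher and 3.90% lower, around a median of 0.05. Libraries did not overlap for 17 genes higher (19.6% of all loci) and 2 lower (13.5%). Of all calls 62.3% were higher, a share that was 44.2% under median ratios, 49.4% under quantile normalization and 81.0% after rescaling to an equal sum; these scalings called 1, 1 and 10 members, all higher. Mrps28 measured 10.3, 8.29 and 11.5 FPKM against 5.85, 6.98 and 7.05 in KI (log2 difference 0.53 ± 0.15, limma adjusted p = 0.0403). The T cell marker sum and Cd8b1 also differed between the naive groups, as given above, and their part in the result was not tested. Mrpl47, named after its values were seen, measured 3.49, 4.60 and 3.98 against 2.57, 2.31 and 2.34 FPKM (0.55 ± 0.14, limma adjusted p = 0.031).

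Mrpl35 measured 6.502, 9.05 and 17.6 FPKM against 4.43, 5.06 and 5.45 FPKM (log2 difference 0.91 ± 0.25, limma adjusted p = 0.041), with KIKO naive 3 well above the other libraries. Without that library the difference was 0.54 (limma adjusted p = 0.0685). The count of 4 went to 0 without KI naive 1, KI naive 2 or KIKO naive 3, to 1 without KI naive 3 or KIKO naive 2, and to 2 without KI activated 1 or KI activated 2. It was 1 without both libraries with myeloid transcripts. No single one of the 4 genes was called under all 22 alternatives.

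Within groups the genes moved with the library. KIKO activated 3 was the lowest of its group for 54 of 68 genes, KI activated 1 the lowest for 47 and KI activated 3 the highest for 47. The count of genes lower in activated KIKO cells was 22 without KIKO activated 3, 22 without KI activated 3 and 28 without KI activated 1.

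Mrps26, a mitochondria-specific small-subunit protein, fell in activated KIKO cells against the direction of most members. Its total level was 20.4, 19.0 and 24.7 FPKM in KI naive, 18.4, 19.5 and 22.8 in KI activated, 22.1, 23.2 and 24.5 in KIKO naive and 13.1, 9.77 and 15.0 in KIKO activated libraries. The ranges of naive and activated KI cells overlapped (log2 difference -0.07, limma adjusted p = 0.685). The KIKO level fell without overlap, by 0.85 ± 0.15 on the log2 scale (SE, limma adjusted p = 0.000557), and the interaction was -0.78 (limma adjusted p = 0.0208).

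The files follow 1 intron of Mrps26, 82 bp long at chr2:130406147-130406228 on the plus strand (GRCm39), that many transcripts retained. It was held in 48.8%, 49.9% and 57.2% of transcripts in KI naive and in 60.9%, 54.2% and 55.1% in KIKO naive libraries. After stimulation the share was 34.9%, 35.4% and 36.7% in KI and 46.6%, 43.3% and 48.3% in KIKO libraries. The share was lower in activated than in naive cells of either genotype, and higher in KIKO than in KI activated cells, each without overlap. Among 7510 events of all genes, shares did not overlap for 10.8% in KI and 8.43% in KIKO activation. Between the genotypes in activated cells that figure was 9.89%. No test was run on shares.

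The form without the intron went from 10.4, 9.54 and 10.6 FPKM to 12.0, 12.6 and 14.4 FPKM in KI cells, and from 8.53, 10.7 and 11.0 to 6.98, 5.54 and 7.77 FPKM in KIKO cells. The form with it went from 9.95, 9.48 and 14.1 to 6.42, 6.91 and 8.36 FPKM in KI and from 13.3, 12.6 and 13.5 to 6.09, 4.23 and 7.25 FPKM in KIKO cells. In KI cells the spliced form was therefore higher and the intron-holding form lower after stimulation, while in KIKO cells both were lower, all without overlap.

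**Figure D5:**
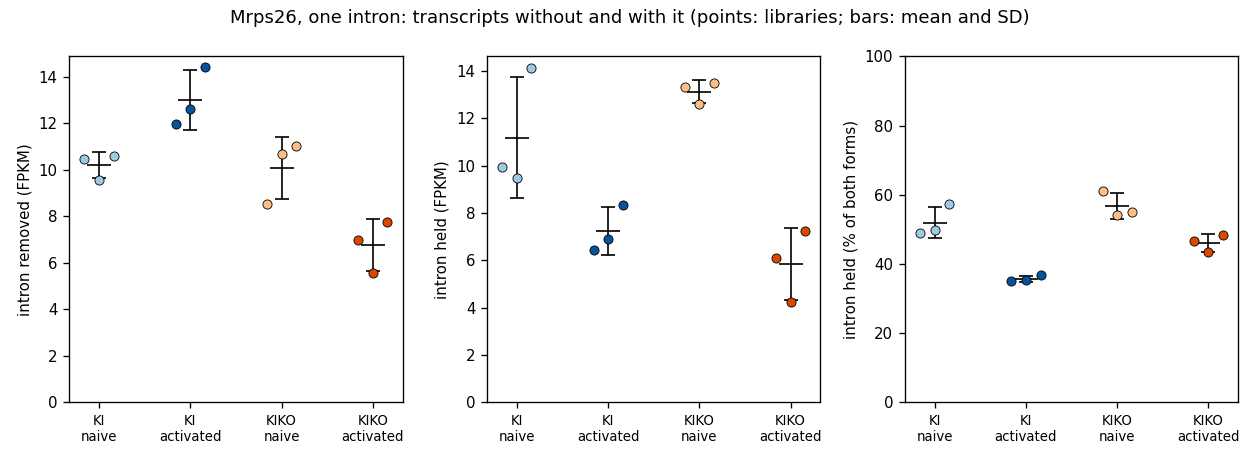
Panels show, for the 82-bp intron of Mrps26, FPKM of transcripts without it, FPKM of transcripts with it, and the share that holds it, in percent from 0 to 100; points are libraries and bars mean and SD. The share is lowest in KI activated libraries, 34.9% to 36.7%, and the spliced form is lowest in KIKO activated libraries, 5.54 to 7.77 FPKM.

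The splicing events of the family, the Mrps26 intron among them, were counted against those of all genes. That intron is part of the counts without overlap given below for activated cells, for KI and for KIKO cells. The files hold 44 events of 30 members with at least 5 FPKM in each library, 40 skipped exons and 4 retained introns. Shares did not overlap between genotypes for 1 of 44 events in naive cells (6.80% of 7510 events of all genes) and for 4 in activated cells (9.89%). Between naive and activated cells they did not overlap for 4 in KI (10.8%) and 2 in KIKO cells (8.43%), so the members' shares of events lay near or below those of all genes. Among them a 94-bp exon of Mrpl13, singled out after its values were seen, was included in 74.2%, 69.7% and 85.0% of transcripts in KI naive and 93.9%, 86.7% and 90.6% in KI activated libraries. In KIKO cells it went from 80.9%, 84.5% and 82.7% to 87.3%, 86.5% and 87.9%. Inclusion was higher in activated cells of either genotype, without overlap.

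Members lie on 17 chromosomes. Mrpl46 and Mrps11 stand head to head on chromosome 7, on opposite strands with 29 bp between their starts. Both rose in KI cells, Mrpl46 by 1.00 and Mrps11 by 0.69. Activated KIKO cells held less Mrpl46, 33.0, 32.5 and 25.8 FPKM against 40.7, 37.8 and 40.6 (log2 difference -0.38, limma adjusted p = 0.0335). Mrps11 measured 12.6, 12.3 and 10.0 against 10.9, 14.3 and 10.9 FPKM, with overlap (log2 difference -0.04, limma adjusted p = 0.898). The difference between genotypes passed the test for 1 gene of the pair, and whether these 2 differences differ was not tested.

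Some members carry another gene's name in the files and were not part of the 69. For 6 of them, Mrpl33, Mrpl51, Mrps6, Mrps15, Mrps24 and Mrps34, a transcript start of at least 5 FPKM on average had exactly the length of the annotated first exon. Over all lengths of the locus the best match was the Mrpl or Mrps gene for the first 3 and Mrps15, but Urgcp for the locus of Mrps24 and Nme3 for that of Mrps34, so those values rest on the start alone. All 6 were lower in KIKO than in KI activated libraries without overlap, as were 26.0% of all loci. Shares of all loci given here are of whole-locus levels, an unlike measure to a single start. In naive cells Mrps34 and Mrps6 were lower in KIKO without overlap (13.5% of all loci) and none was higher. Mrps6 measured 12.4, 13.9 and 12.7 FPKM in KI naive and 68.0, 76.1 and 79.5 FPKM in KI activated libraries. In KIKO cells it went from 9.91, 11.3 and 11.7 to 51.9, 66.0 and 41.1 FPKM. In KI cells 5 of the 6 were higher after stimulation without overlap (35.6% of all loci), and Mrps24 overlapped, at 56.7 to 65.6 FPKM before and 65.4 to 75.2 FPKM after. Mrpl51 reached the limit of 5 FPKM only through its activated libraries, so its place among the 5 is not independent of that limit. Its means were 3.94 FPKM in KI naive, 4.09 in KIKO naive, 10.8 in KI activated and 7.69 in KIKO activated cells. Conversely, the locus called Mrpl53 matched the exon lengths of its neighbour Ccdc142, so its value may not be that of Mrpl53; it passed in no comparison.

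Some mitochondrial ribosomal proteins have names outside the Mrpl and Mrps series. Of 5 listed, 3 were lower in activated KIKO cells: Gadd45gip1, which sits at the peptide exit, Aurkaip1 and Chchd1. In this comparison 19.3% of all loci were lower and 20.7% higher, and a list of 5 genes is small. Gadd45gip1 measured 33.2, 32.0 and 39.7 FPKM in KI against 21.5, 23.0 and 19.5 FPKM in KIKO activated libraries (log2 difference -0.68, limma adjusted p = 0.000448). Dap3 (-0.11) and Ptcd3 (-0.30) did not pass.

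Factors that build the mitochondrial ribosome or modify its RNA had 6 of 22 lower in activated KIKO cells and none higher, with a median of -0.15. In all, 27.3% of them were called, against 40.0% of all loci, of which 19.3% were lower. Noa1, a GTPase needed for the small subunit, measured 22.4, 23.5 and 26.3 against 12.7, 12.4 and 9.68 FPKM, a log2 difference of -0.998 (limma adjusted p = 0.0001). Mrm3, which methylates the large ribosomal RNA, measured 10.3, 10.9 and 11.0 against 5.66, 4.92 and 5.94 FPKM, a log2 difference of -0.86 (limma adjusted p = 0.00014). Neither gene's groups overlapped.

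Of 15 genes listed with translation factors, 4 were lower in activated KIKO cells and none higher. Among them were the elongation factor Tufm (-0.70) and its exchange factor Tsfm (-0.54), and also the RNA-binding protein Lrpprc (-0.47). The list further holds the membrane insertase Oxa1l, which was not called. Of 15 genes listed for expression and maintenance of mitochondrial DNA, 5 were lower and none higher. Top1mt (-0.89), Elac2 (-0.58) and Tfam, which packages mitochondrial DNA (-0.47), were among them. That list also holds the mitochondrial proteases Lonp1, which was lower (-0.33), and Clpp, which was not called (-0.20). The shares called were 26.7% and 33.3%, below the 40.0% of all loci that differed in either direction and above the 19.3% that were lower.

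After stimulation the shares of the 3 larger lists that changed in either direction were near those of all loci. In KI cells 3 of the 5 proteins with other names and 12 of 22 assembly and modification factors rose, and 1 assembly factor fell. So did 10 of 15 genes on the list of translation factors rise, and 10 of 15 on that of mitochondrial DNA expression and maintenance. Of the last 3 lists 59.1%, 66.7% and 66.7% changed, against 61.7% of all loci, 32.2% upwards. In KIKO cells 2, 8, 7 and 6 rose, and 0, 2, 1 and 1 fell. Of the last 3 lists 45.5%, 53.3% and 46.7% changed, against 47.3% of all loci, 25.1% upwards. The interaction was lower in KIKO cells for 1, 5, 6 and 5 genes of the lists and higher for none (11.6% of all loci lower, 8.99% higher). In naive KIKO cells 3 translation factors and 3 genes of mitochondrial DNA expression were higher, 1 assembly factor was higher and 1 lower, where 6.46% of all loci were higher and 3.90% lower.

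Nuclear genes of respiratory chain subunits encode the partners of the proteins that mitochondrial ribosomes make. Genes were taken by name alone, from the Nduf, Sdh, Uqcr and Cox series and those of the ATP synthase. That rule would also take assembly factors named Ndufaf or Sdhaf, which are not subunits. Of 86 tested genes so named, 71 rose and 2 fell in KI cells, with a median of 0.89. In activated KIKO cells 46 were lower and 3 higher, with a median of -0.42. The shares called were 84.9% and 57.0%, against 61.7% and 40.0% of all loci. The cytosolic ribosome is made of other proteins, all nuclear-encoded. Its genes were taken by name alone, Rpl or Rps followed by a number and the Rplp genes. That rule would also take genes named Rps6k, which encode kinases. Of 73 tested genes so named, 25 rose and 10 fell in KI cells, with a median of 0.15. In activated KIKO cells 25 were lower and none higher, with a median of -0.26, and in naive KIKO cells 17 were lower and 1 higher, with a median of -0.22, where the mitochondrial ribosome had 4 higher and none lower. The shares called were 47.9%, 34.2% and 24.7%, against 61.7%, 40.0% and 10.4% of all loci. Differences between lists were not tested, and many cytosolic ribosomal protein genes have near-identical pseudogenes that may share their reads.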

How the data were processed

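The authors deposited FPKM, with 1 line per transcript event (a start, an end, a skipped exon, a retained intron). Per the labels' protocols, poly(A) RNA from 15 ng of total RNA was made into stranded TaKaRa SMART-seq libraries. Per the submitters' processing notes, FastQC 0.11.9, cutadapt 2.9 and HISAT2 2.2.0 were used and no source used here names the program that made the FPKM. The notes name GRCm39 and mm10, and coordinates are GRCm39.

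Events at 0 are not listed and were taken as 0, and duplicate events were dropped. The level of a locus was the largest of its summed starts, its summed ends and its largest event; of several loci of a symbol the highest was kept. limma 3.58.1 (R 4.3.3) fitted log2(FPKM + 1) with 4 group means and an intensity trend, without a replicate block, for 5 comparisons, Benjamini-Hochberg over all loci. The test was also run on simulated data with noise drawn separately for each locus, whereas the members here moved with the library. No result here rests on that run.

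Members, lists and rules were chosen with earlier results of these data known. Named genes were, in each comparison, up to 8 each way with the largest difference among those called, with a mean of at least 5 FPKM in a group and no overlap; members called against the majority; the untested member; and Mrps18a, Mrps18b, Mrps18c, Mrpl12, Mrpl18, Mrps12, Mrpl41 and Mrps36. Mrpl41 was not found under its name. Context lists gave up to 4 genes each. Exon and intron lengths were matched to GENCODE M21 genes within 1000000 bp by length only. Of the loci, 67 matched their own gene best, and those of Mrpl53 and Mrps12 matched another gene in that window better. Alternatives were another pseudocount, no filter, 3 rescalings, starts only, no trend, a replicate block, and leaving out libraries; leaving out the 2 libraries with myeloid transcripts was chosen after seeing the data. Same-numbered naive and activated libraries were not treated as paired.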

Additional observations from a re-analysis of the deposited data

Results flagged for a closer look

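The response to stimulation differed between KI and KIKO cells in 26 of the 68 tested genes, each with a lower response in KIKO cells. The test was limma's for the interaction of genotype and activation, adjusted over all loci. By that test 20.6% of all loci passed, 11.6% lower and 8.99% higher. Of the 26 genes, 13 kept their call under all 22 alternatives. Among those named by size the interaction was -1.38 for Mrpl15, -1.37 for Mrpl52, -1.11 for Mrpl35, -1.03 for Mrpl12, -1.02 for Mrpl42, -0.93 for Mrpl36, -0.92 for Mrps23 and -0.87 for Mrpl4 on the log2 scale. Mrpl15 and Mrpl35 were also among the genes called higher in naive KIKO cells, so part of their interaction lies in the naive libraries. All of these except Mrpl35 kept their call under each of the 22 alternatives.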

How the results depend on the processing

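Of the genes called, 51 of 57 in KI activation, 33 of 45 in KIKO activation, 18 of 31 in activated KIKO against KI, 13 of 26 for the interaction and 0 of 4 in naive cells kept their call under all 22 alternatives. The naive count of 4 was 10 with rescaling to an equal sum, 2 with starts only or without the intensity trend, 1 with median-ratio scaling, quantile normalization or without both libraries with myeloid transcripts, and 0 with no filter. Leaving out single libraries gave 0 to 5 in naive cells, 22 to 33 in activated KIKO against KI, 55 to 58 in KI activation, 37 to 45 in KIKO activation and 15 to 27 for the interaction. The equal sum left 21 genes lower in activated KIKO cells and put the median of all loci at 0.13 in naive cells and -0.13 in KI activation. Signs turned for uncalled Mrps18b in naive cells (-0.058 with all libraries; 0.034 with an equal sum, 0.056 without both libraries with myeloid transcripts, and -0.13 to 0.056 without single libraries, turning without KI naive 3 or KIKO naive 2) and for the interaction of Mrps18c (-0.060 with all libraries; 0.0395 with quantile normalization and -0.14 to 0.069 without single libraries, turning without KIKO activated 3). Mterf3, an assembly gene, turned from -0.75 to 0.26 in activated cells with starts only and is not described further. The cause was not tested. FPKM give no depth, so no limit of detection can be given.

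With the replicate number as a block through duplicateCorrelation (consensus correlation 0.0732) the counts were 4, 31, 57, 46 and 27 in naive, activated, KI activation, KIKO activation and interaction. As a fixed term the replicate block gave 1, 32, 56, 44 and 21. Deviations of same-numbered libraries correlated at 0.0555, 0.0792 and 0.102 in KI and -0.00438, 0.0939 and 0.035 in KIKO cells. In KI each library correlated best with its own number. In KIKO cells number 2 did so, while naive 1 correlated best with activated 3 (0.0662). KIKO naive 3 correlated about equally with activated 1 (0.0352) and activated 3 (0.035). The KIKO libraries numbered 2 shared myeloid transcripts, as given above. Summed erythroid markers were 2.24 FPKM in KIKO naive 1 and 3.36 FPKM in KIKO activated 1, and at or under 0.225 FPKM elsewhere. Whether same-numbered libraries share a source was not tested.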
